A study of Mus musculus with 4 samples.

Results

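The 41 genes described here are markers and working parts of macrophages and other leukocytes, the immune cells of blood and tissue. They were taken by gene name from a table of 48432 rows and 48316 gene names, in which they fill 42 rows. By what they are known to mark, 6 are pan-leukocyte genes, 20 are macrophage and myeloid genes shared by several kinds of phagocyte, 7 mark resident tissue macrophages, 2 mark monocytes, 2 mark macrophages in damaged tissue, 1 marks neutrophils and 3 mark lymphocytes. The table comes from cardiomyocytes, the muscle cells that make the heart beat, released by Langendorff perfusion from mice of the C57BL x FVB strain. There were 2 groups of 2 libraries. The control carried the genotype that the labels name MHC, without spelling it out, and the other group, labelled Rbfox2 OE, overexpressed the non-muscle isoform of RBFOX2, an RNA-binding protein that regulates splicing, in a study of myotonic dystrophy. Both groups ate a diet with doxycycline for 3 days. The labels give no promoter, founder line, age, sex, batch or sequencing date, and do not say whether a library came from 1 mouse or several.

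Resident macrophages settle in the heart before and after birth, live along vessels and between myocytes, and take up debris and dying cells. Monocytes are made in the bone marrow, circulate, and enter tissue on chemokine signals, where they can become macrophages. Neutrophils are short-lived granulocytes of the blood. All of these are myeloid cells: they depend on the transcription factor PU.1, and they carry Fc receptors, integrins and an oxidase with which they bind, engulf and kill microbes. T, B and NK cells are lymphocytes, which share some of these genes, integrins among them.

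Macrophage and leukocyte transcripts stood higher in Rbfox2 OE throughout. The value of every one of the 41 genes was higher in Rbfox2 OE than in the control, and none was lower. FPKM is a count of fragments divided by transcript length and by the total of the library, and the deposited table gives 1 value per gene and group, in which both libraries of the group are combined, with a lower and an upper bound set by the authors. The headers do not say what level the bounds have, there is no value per library, and the depth in reads is unknown, so no test between the groups was possible and differences are described by 2 measures. A gene was counted as 2-fold higher when the log2 ratio of Rbfox2 OE over control, with 1 FPKM added to each value, was at least 1, and its bounds were called separate when those of the groups did not overlap.

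Of the 41 genes, 30 were at least 2-fold higher and 31 had separate bounds with the higher value in Rbfox2 OE. By comparison, 3.81% of the 22831 genes above 0 in either group were 2-fold higher, and 4.62% were higher with separate bounds. The 41 genes were chosen with earlier results of these data known, so these shares are a description and not a test. The median log2 ratio of the 41 genes was 1.63. Averaged over the groups, 35 members reached 1 FPKM, and 12 of these reached that mean only through Rbfox2 OE, so their place among the genes compared already depended on being high there. Of the 35, 30 were 2-fold higher and 30 were higher with separate bounds. Among the 11697 genes with that mean, 6.97% were 2-fold higher, 10% were 2-fold lower, 6.67% were higher with separate bounds and 9.33% were lower with separate bounds, and the median log2 ratio was -0.06. The summed level of the 41 genes was 141.3 FPKM in the control against 589.9 FPKM in Rbfox2 OE, a ratio of 4.18, or 0.0275% against 0.132% of the FPKM of all genes. In RNA from a bulk preparation, more cells of a type and more RNA per cell cannot be told apart.

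**Figure D1:**
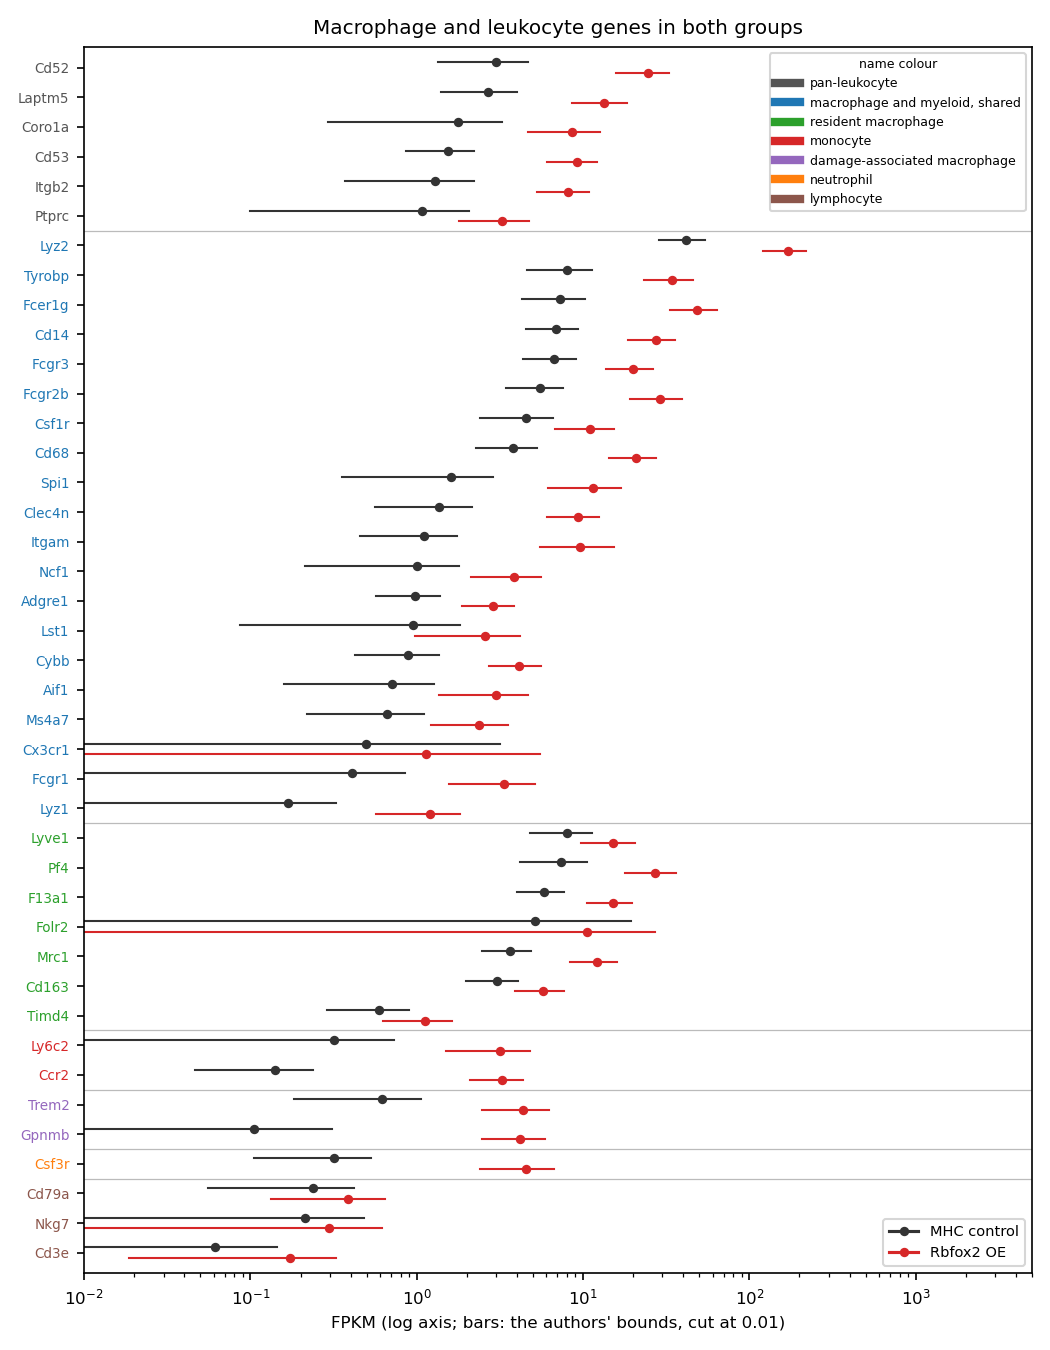
Level of each of the 41 genes in FPKM on a log axis, ordered by role and then by control level, with MHC control in black and Rbfox2 OE in red. Points are the authors' pooled values and bars the authors' bounds, and every red point lies to the right of its black point, while the bounds of 10 genes overlap.

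Lyz2, the lysozyme of macrophages and neutrophils and the most abundant of the 41 genes, showed the same pattern at the highest level. Lyz2 (ENSMUSG00000069516, chr10:117277331-117282321, minus strand; coordinates here and below are of GRCm38) stood at 41.3 FPKM (bounds 28.8 to 53.9) in the control against 169.7 FPKM (bounds 120.1 to 219) in Rbfox2 OE, a ratio of 4.11 and a log2 ratio of 2.01. It took 29.2% of the summed level of the 41 genes in the control against 28.8% in Rbfox2 OE. Its neighbour Lyz1 (ENSMUSG00000069515, chr10:117287797-117292868, minus strand), the lysozyme best known from Paneth cells of the gut, was far lower, at 0.169 FPKM (bounds 0.0101 to 0.327) in the control against 1.20 FPKM (bounds 0.571 to 1.82) in Rbfox2 OE. Both genes therefore had separate bounds with the higher value in Rbfox2 OE, and Lyz1 had a mean under 1 FPKM.

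The paralogues are close enough in sequence for fragments of one to be counted to the other. The coding frames, read from the GENCODE M21 transcripts over their last 447 bases, differed at 22 positions (95.1% identity), and 15.4% of the 50-base sequences of the Lyz2 transcripts also occurred in Lyz1. The stretch with most differences, bases 43 to 132 of the shared frame, holds 13 of them, printed in capitals:
Lyz1: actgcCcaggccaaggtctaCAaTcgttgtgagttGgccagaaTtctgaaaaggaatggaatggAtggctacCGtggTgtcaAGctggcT
Lyz2: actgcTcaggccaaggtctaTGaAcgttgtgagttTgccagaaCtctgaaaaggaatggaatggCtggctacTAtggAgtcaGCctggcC
Upstream, 92 of the last 100 bases before the RefSeq start of each gene were identical, against 60.8% over 250 bases. The 8 differences all fall in the 50 bases shown here, again in capitals, from RefSeq (GRCm38.p6):
Lyz1, chr10:117292919-117292968, minus strand: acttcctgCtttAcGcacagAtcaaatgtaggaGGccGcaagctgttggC
Lyz2, chr10:117282323-117282372, minus strand: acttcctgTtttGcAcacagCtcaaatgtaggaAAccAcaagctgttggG
How far fragments of Lyz2 contribute to the low Lyz1 value was not tested.

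Genes of the Fc receptor and Tyrobp pathway were among the most abundant of the 41. Fcer1g (ENSMUSG00000058715, chr1:171229572-171234365, minus strand), the shared signalling chain of several Fc receptors, stood at 7.26 FPKM (bounds 4.27 to 10.3) in the control against 48.6 FPKM (bounds 33.2 to 64.0) in Rbfox2 OE, a log2 ratio of 2.59. Tyrobp, the adaptor through which Trem2 and related receptors signal, stood at 7.97 FPKM (bounds 4.58 to 11.4) in the control against 34.4 FPKM (bounds 23.1 to 45.7) in Rbfox2 OE. The bounds of both genes were separate by a wide margin.

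The receptors that bind antibody differed in how far the groups lay apart. Fcgr2b, the inhibitory Fc receptor, stood at 5.49 FPKM (bounds 3.44 to 7.53) in the control against 29.1 FPKM (bounds 19.1 to 39.1) in Rbfox2 OE, a ratio of 5.30. Fcgr3, a low-affinity activating receptor, stood at 6.71 FPKM (bounds 4.35 to 9.07) in the control against 19.98 FPKM (bounds 13.7 to 26.3) in Rbfox2 OE, a ratio of 2.98. Fcgr1, the high-affinity receptor, was low in the control at 0.406 FPKM (bounds 0 to 0.844) and stood at 3.35 FPKM (bounds 1.56 to 5.14) in Rbfox2 OE. All 3 receptors had separate bounds, and 9.58% of the 50-base sequences of Fcgr3 transcripts also occurred in Fcgr2b.

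Other genes of the pathway were mostly higher too. They form a list of 20 that holds none of the 41 and was chosen with earlier results of these data known. Of these, 12 were 2-fold higher and 11 had separate bounds with the higher value in Rbfox2 OE, none was 2-fold lower, and 18 of 20 values were higher. Clec4d, a C-type lectin that couples to the Fc receptor chain, stood at 0.731 FPKM (bounds 0.250 to 1.21) in the control against 8.23 FPKM (bounds 5.10 to 11.4) in Rbfox2 OE. Clec7a, the receptor for fungal beta-glucan, stood at 0.0931 against 2.96 FPKM, control against Rbfox2 OE, and Fgr, a Src-family kinase of myeloid cells, at 0.133 against 3.06 FPKM, both with separate bounds. Sirpa, the most abundant gene of the list and also expressed outside the immune system, stood at 15.3 FPKM (bounds 7.50 to 23.1) in the control against 19.4 FPKM (bounds 8.94 to 29.9) in Rbfox2 OE, with overlapping bounds. The kinase Syk (9.30 against 8.30 FPKM) and the phospholipase Plcg2 (2.70 against 1.78 FPKM), which act below these receptors, were the 2 genes whose value was lower in Rbfox2 OE.

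Spi1, which encodes PU.1, the transcription factor on which myeloid cells depend, was higher in Rbfox2 OE. Spi1 (ENSMUSG00000002111, chr2:91082390-91115756, plus strand) stood at 1.60 FPKM (bounds 0.354 to 2.86) in the control against 11.5 FPKM (bounds 6.13 to 16.9) in Rbfox2 OE, a log2 ratio of 2.26. Csf1r, the receptor for the macrophage growth factors CSF1 and IL-34, stood at 4.51 FPKM (bounds 2.39 to 6.63) in the control against 11.0 FPKM (bounds 6.80 to 15.3) in Rbfox2 OE, and its ratio of 2.45 was among the lowest of the shared macrophage genes. Its bounds were barely separate.

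Fewer of the ligands and partner factors of this axis differed. Of 14 listed genes of the CSF1 receptor axis and of myeloid transcription, 6 were 2-fold higher, 3 had separate bounds with the higher value in Rbfox2 OE, and none was 2-fold lower. The 3 were Csf2rb (0.413 against 3.73 FPKM) and Csf2rb2 (0.395 against 3.48 FPKM), the beta chains of the receptors for GM-CSF and related cytokines, and the factor Cebpa (1.56 against 4.51 FPKM), control against Rbfox2 OE. Csf1 itself stood at 47.0 FPKM (bounds 28.6 to 65.4) in the control against 42.8 FPKM (bounds 26.1 to 59.6) in Rbfox2 OE, so its bounds overlapped. Cebpb, the most abundant gene of the list and one that many cell types induce, stood at 68.8 FPKM (bounds 41.5 to 96.1) in the control against 65.6 FPKM (bounds 38.1 to 93.1) in Rbfox2 OE, also with overlapping bounds.

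The promoters of the genes were searched for the core of the PU.1 site because Spi1 is one of the 41. A RefSeq promoter window, 250 bases before to 50 bases after the start of the gene, was in hand for 31 of the 41. GAGGAA, read on either strand, occurred in 18 of the 31 windows (58.1%), against 28.3% of all 27025 windows and 26.5% of those of 8750 genes compared. The longer GAGGAAGT, which contains the shorter motif, occurred in 3 of 31 (9.68%), those of Cd53, Ly6c2 and Pf4, against 3.28% of all windows and 3.05% of those of genes compared. TATAAA, the core of the TATA box, occurred in 2 of 31 (6.45%), against 14.2% and 7.21%. A match describes letters in a window and not a bound site.

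The windows shown are those of the 3 genes with the largest log2 ratios among the genes with separate bounds and a RefSeq promoter, followed by the windows with GAGGAAGT before the start. They are read 5′ to 3′ on the strand of the gene and end at the base before the RefSeq start, except that of Ly6c2, and capitals mark GAGGAA or GAGGAAGT on either strand (GRCm38.p6).
Fcer1g, chr1:171234350-171234449, minus strand: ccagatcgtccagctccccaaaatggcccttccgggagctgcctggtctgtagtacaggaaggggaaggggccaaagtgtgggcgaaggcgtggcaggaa
Itgam, chr7:128062540-128062639, plus strand: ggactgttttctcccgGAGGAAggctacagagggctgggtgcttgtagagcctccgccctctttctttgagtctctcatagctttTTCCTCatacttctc
Gpnmb, chr6:49036418-49036517, plus strand: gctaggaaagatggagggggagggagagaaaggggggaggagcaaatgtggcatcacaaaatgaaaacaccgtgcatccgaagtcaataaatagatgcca
Ly6c2, chr15:75112046-75112105, minus strand: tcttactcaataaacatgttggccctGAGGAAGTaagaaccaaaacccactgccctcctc
Pf4, chr5:90772399-90772434, plus strand: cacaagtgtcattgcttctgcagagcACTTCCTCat
Itgam carried GAGGAA 84 bases before the start and its reverse complement 15 bases before it, and no capitals fall in the windows of Fcer1g and Gpnmb. Pf4 carried the reverse complement of GAGGAAGT 10 bases before its start, and Ly6c2 carried the motif 108 bases before its start and again at base 27 after it.

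Surface proteins and lysosomal genes by which macrophages are commonly recognised also stood higher in Rbfox2 OE. Cd68, a lysosomal glycoprotein of macrophages, stood at 3.77 FPKM (bounds 2.27 to 5.28) in the control against 20.9 FPKM (bounds 14.2 to 27.5) in Rbfox2 OE, and Cd14, the co-receptor for bacterial lipopolysaccharide, at 6.90 FPKM (bounds 4.53 to 9.27) in the control against 27.3 FPKM (bounds 18.6 to 35.9) in Rbfox2 OE. Adgre1, which encodes the F4/80 antigen, stood at 0.974 FPKM (bounds 0.565 to 1.38) in the control against 2.87 FPKM (bounds 1.87 to 3.87) in Rbfox2 OE, with separate bounds, and its log2 ratio of 0.97 was just under 2-fold. Cd68, Cd14 and Adgre1 thus spanned ratios from 2.95 to 5.53.

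Itgam, the alpha chain of the CD11b integrin of monocytes, macrophages and neutrophils, had the largest ratio of the shared macrophage genes. Summed over its 2 rows, Itgam (ENSMUSG00000030786, chr7:128062640-128118491, plus strand) stood at 1.10 FPKM (bounds 0.453 to 1.75) in the control against 9.58 FPKM (bounds 5.48 to 15.3) in Rbfox2 OE, a ratio of 8.69. The row of the named gene alone stood at 1.10 and 9.18 FPKM. The second row is an overlapping read-through model, with which Itgam shares 66.3% of its 50-base sequences, and stood at 0 and 0.404 FPKM. Clec4n, the lectin receptor Dectin-2, stood at 1.36 FPKM (bounds 0.558 to 2.15) in the control against 9.27 FPKM (bounds 6.04 to 12.5) in Rbfox2 OE.

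Both members that belong to the oxidase with which phagocytes make superoxide had separate bounds. Cybb, the catalytic subunit, stood at 0.889 FPKM (bounds 0.424 to 1.35) in the control against 4.14 FPKM (bounds 2.71 to 5.58) in Rbfox2 OE, and Ncf1, the p47 organiser subunit, at 0.997 FPKM (bounds 0.211 to 1.78) in the control against 3.83 FPKM (bounds 2.11 to 5.56) in Rbfox2 OE. Of the other 4 listed genes of the complex, 3 were 2-fold higher and 2 had separate bounds, with Rac2, the GTPase of the complex in blood cells, at 0.717 against 4.16 FPKM, control against Rbfox2 OE. Cyba, the second membrane subunit and one that other cells also express, stood at 23.1 FPKM (bounds 0 to 118) in the control against 38.2 FPKM (bounds 0 to 179) in Rbfox2 OE, with overlapping bounds that reach 0 in both groups.

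Of the 4 other shared genes, 2 had separate bounds and 2 did not. Aif1, the calcium-binding protein IBA1, stood at 0.711 FPKM (bounds 0.159 to 1.26) in the control against 3.01 FPKM (bounds 1.35 to 4.67) in Rbfox2 OE, and Ms4a7, a membrane protein of macrophages, at 0.664 FPKM (bounds 0.220 to 1.11) in the control against 2.37 FPKM (bounds 1.22 to 3.53) in Rbfox2 OE, both with separate bounds. The bounds overlapped for Lst1, a leukocyte transcript of the major histocompatibility region, at 0.954 FPKM (bounds 0.0868 to 1.82) in the control against 2.58 FPKM (bounds 0.974 to 4.18) in Rbfox2 OE. They also overlapped for Cx3cr1, the fractalkine receptor, at 0.497 FPKM (bounds 0 to 3.17) in the control against 1.136 FPKM (bounds 0 to 5.50) in Rbfox2 OE, whose annotated locus spans 9 other genes.

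Genes expressed by nearly all leukocytes had ratios in the range of the shared myeloid genes. All 6 were 2-fold higher, 5 had separate bounds, and their ratios ran from 3.05 to 8.15 with a median of 5.44, against 2.29 to 8.69 in the shared genes. Cd52, a small surface glycoprotein of leukocytes, had the largest log2 ratio of the 41 genes (2.67) and stood at 3.00 FPKM (bounds 1.35 to 4.64) in the control against 24.4 FPKM (bounds 15.8 to 33.1) in Rbfox2 OE. Laptm5, a lysosomal membrane protein of blood cells, stood at 2.70 FPKM (bounds 1.41 to 3.99) in the control against 13.4 FPKM (bounds 8.55 to 18.3) in Rbfox2 OE. Cd53, a tetraspanin, stood at 1.54 FPKM (bounds 0.867 to 2.22) in the control against 9.13 FPKM (bounds 6.09 to 12.2) in Rbfox2 OE, which is again separate. Itgb2, the beta chain shared by leukocyte integrins, stood at 1.28 FPKM (bounds 0.369 to 2.197) in the control against 8.09 FPKM (bounds 5.31 to 10.9) in Rbfox2 OE, and Coro1a, an actin-binding protein, at 1.78 FPKM (bounds 0.291 to 3.27) in the control against 8.63 FPKM (bounds 4.69 to 12.6) in Rbfox2 OE. Ptprc, which encodes the pan-leukocyte antigen CD45, stood at 1.07 FPKM (bounds 0.0991 to 2.05) in the control against 3.27 FPKM (bounds 1.79 to 4.76) in Rbfox2 OE. It was the pan-leukocyte gene whose bounds overlapped.

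The listed integrins and cytoskeletal genes of leukocytes are 18 genes outside the 41, chosen with earlier results of these data known. Of these, 13 were 2-fold higher, 14 had separate bounds with the higher value in Rbfox2 OE, and all 18 values were higher. Lcp1, the actin-bundling protein L-plastin, stood at 4.61 FPKM (bounds 2.94 to 6.27) in the control against 19.8 FPKM (bounds 13.5 to 26.1) in Rbfox2 OE. Fyb, an adaptor of integrin signalling, stood at 0.753 against 4.66 FPKM, and Plek, a kinase substrate of platelets and leukocytes, at 1.41 against 6.72 FPKM, control against Rbfox2 OE. Arhgdib, a signalling regulator of blood cells and the most abundant of the list, stood at 10.7 FPKM (bounds 6.89 to 14.4) in the control against 27.1 FPKM (bounds 18.5 to 35.6) in Rbfox2 OE.

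The resident macrophage genes had the highest summed level of the specific markers in the control, 33.7 FPKM against 86.9 FPKM in Rbfox2 OE. All 7 values were higher in Rbfox2 OE, 3 were 2-fold higher and had separate bounds, and the ratios ran from 1.89 to 3.66 with a median of 2.05. Pf4, a chemokine of platelets that resident macrophages also express, stood at 7.34 FPKM (bounds 4.19 to 10.5) in the control against 26.9 FPKM (bounds 17.8 to 36.0) in Rbfox2 OE. Mrc1 (ENSMUSG00000026712, chr2:14229392-14332057, plus strand), the mannose receptor CD206, stood at 3.65 FPKM (bounds 2.45 to 4.86) in the control against 12.2 FPKM (bounds 8.32 to 16.1) in Rbfox2 OE, and F13a1, the coagulation factor XIII A chain, at 5.86 FPKM (bounds 4.01 to 7.70) in the control against 15.2 FPKM (bounds 10.6 to 19.7) in Rbfox2 OE. These were the 3 with separate bounds.

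In the other 4 resident genes the bounds overlapped. Lyve1 (ENSMUSG00000030787, chr7:110850607-110863239, minus strand), a hyaluronan receptor of resident macrophages and of lymphatic vessels, stood at 8.03 FPKM (bounds 4.81 to 11.2) in the control against 15.1 FPKM (bounds 9.65 to 20.6) in Rbfox2 OE. Cd163, the haemoglobin scavenger receptor, stood at 3.01 FPKM (bounds 1.98 to 4.05) in the control against 5.77 FPKM (bounds 3.91 to 7.64) in Rbfox2 OE, so that the bounds overlapped by a narrow margin. Folr2, a folate receptor, stood at 5.17 FPKM (bounds 0 to 19.4) in the control against 10.6 FPKM (bounds 0 to 27.1) in Rbfox2 OE, with bounds that reach 0 in both groups. Timd4, a phosphatidylserine receptor of self-maintaining macrophages, was low, at 0.593 FPKM (bounds 0.290 to 0.895) in the control against 1.13 FPKM (bounds 0.625 to 1.63) in Rbfox2 OE, and was not among the genes compared.

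Further resident macrophage markers, a list of 12 outside the 41, divided evenly. There were 6 that were 2-fold higher, 6 that had separate bounds with the higher value in Rbfox2 OE, and 11 whose value was higher. Wfdc17 stood at 4.63 FPKM (bounds 2.41 to 6.86) in the control against 19.6 FPKM (bounds 12.2 to 27.0) in Rbfox2 OE, Ccl24, an eosinophil-attracting chemokine of such macrophages, at 2.66 against 11.6 FPKM, control against Rbfox2 OE, and Mgl2, a galactose-type lectin, at 4.30 against 11.3 FPKM. Cbr2, the most abundant gene of the list in the control, stood at 9.69 FPKM (bounds 5.49 to 13.9) in the control against 18 FPKM (bounds 10.5 to 25.4) in Rbfox2 OE.

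The 2 monocyte members stood under 1 FPKM in the control. Ccr2 (ENSMUSG00000049103, chr9:124101950-124113557, plus strand), the chemokine receptor with which monocytes leave the marrow and enter tissue, stood at 0.141 FPKM (bounds 0.0461 to 0.236) in the control against 3.23 FPKM (bounds 2.09 to 4.38) in Rbfox2 OE, a ratio of 22.9. Ly6c2, a surface protein of inflammatory monocytes, stood at 0.318 FPKM (bounds 0 to 0.727) in the control against 3.15 FPKM (bounds 1.502 to 4.80) in Rbfox2 OE, a ratio of 9.92. Both had separate bounds. Ly6c2 shares 14.4% of its 50-base sequences with other genes, Ly6c1 among them. Of 12 further monocyte markers, 8 were 2-fold higher with separate bounds. They include Chil3 (0.0181 against 3.51 FPKM), a chitinase-like protein, Plac8 (0.305 against 5.07 FPKM) and Thbs1 (2.45 against 18.7 FPKM), a matrix protein that other cells also make, each control against Rbfox2 OE. Msrb1, a selenoprotein found in many cells, was the most abundant of that list and the 1 gene with a lower value, counted as 2-fold lower, at 167 FPKM (bounds 97.1 to 238) in the control against 71.4 FPKM (bounds 16.0 to 127) in Rbfox2 OE, with overlapping bounds.

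The genes of macrophages in damaged tissue also stood under 1 FPKM in the control. Gpnmb (ENSMUSG00000029816, chr6:49036546-49070929, plus strand), a lysosomal glycoprotein of lipid-laden and debris-clearing macrophages, stood at 0.105 FPKM (bounds 0 to 0.309) in the control against 4.19 FPKM (bounds 2.47 to 5.92) in Rbfox2 OE. Its ratio of 40.1 was the largest of the 41 genes and rests on a control value whose lower bound is 0. Trem2, the lipid receptor that signals through Tyrobp, stood at 0.619 FPKM (bounds 0.182 to 1.06) in the control against 4.36 FPKM (bounds 2.46 to 6.25) in Rbfox2 OE, a ratio of 7.04.

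Csf3r (ENSMUSG00000028859, chr4:126024550-126044440, plus strand), the receptor for the neutrophil growth factor G-CSF, stood at 0.319 FPKM (bounds 0.105 to 0.533) in the control against 4.52 FPKM (bounds 2.38 to 6.65) in Rbfox2 OE, a ratio of 14.2. Csf3r is also expressed by monocytes, and 10.5% of its 50-base sequences occur in other genes. Of 12 further neutrophil markers, 6 were 2-fold higher, 7 had separate bounds with the higher value in Rbfox2 OE, and their summed level was 9.04 FPKM in the control against 94.4 FPKM in Rbfox2 OE. Most of that sum came from the calprotectin genes S100a8, at 3.19 FPKM (bounds 1.42 to 4.97) in the control against 35.0 FPKM (bounds 20.7 to 49.4) in Rbfox2 OE, and S100a9, at 4.26 FPKM (bounds 2.166 to 6.36) in the control against 44.5 FPKM (bounds 26.9 to 62.2) in Rbfox2 OE. Monocytes express S100a8 and S100a9 too, and their part in the sum was not tested. Retnlg, a resistin-like protein of neutrophils, stood at 0.884 against 6.47 FPKM, control against Rbfox2 OE. Mpo and Elane, granule genes of neutrophil precursors in the marrow, were listed at 0 in both groups, and Ly6g, the usual surface marker of mature neutrophils, stood at 0.0836 against 0.205 FPKM.

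The 3 lymphocyte genes stayed near 0 FPKM in both groups, with higher values in Rbfox2 OE. Cd3e, a chain of the T cell receptor complex, stood at 0.0611 FPKM (bounds 0 to 0.143) in the control against 0.172 FPKM (bounds 0.0187 to 0.325) in Rbfox2 OE. Cd79a, a chain of the B cell receptor complex, stood at 0.236 FPKM (bounds 0.0552 to 0.417) in the control against 0.387 FPKM (bounds 0.132 to 0.642) in Rbfox2 OE, and Nkg7, a granule protein of NK and cytotoxic T cells, at 0.212 FPKM (bounds 0 to 0.482) in the control against 0.295 FPKM (bounds 0 to 0.616) in Rbfox2 OE. The bounds of all 3 overlapped. Among 12 further T and NK cell markers all 12 values were higher in Rbfox2 OE, with a median ratio of 3.84. Of the 12, 11 were at or under 0.730 FPKM in both groups. The other was Ccl5, a chemokine that lymphocytes, macrophages and platelets make, at 0.837 FPKM (bounds 0.164 to 1.51) in the control against 9.53 FPKM (bounds 4.92 to 14.1) in Rbfox2 OE. It was the 1 gene of the list that was 2-fold higher, and 2 of the 12 had separate bounds. Among 8 further B cell markers 5 values were higher and 3 lower in Rbfox2 OE, none was 2-fold higher and 0 had separate bounds. The most abundant was Ighm, at 2.95 FPKM (bounds 1.78 to 4.12) in the control against 3.86 FPKM (bounds 2.31 to 5.40) in Rbfox2 OE.

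Set against the resident macrophage genes, the other macrophage and leukocyte genes mostly showed larger ratios, although few were separated once the bounds were taken into account. The plain FPKM ratio was above that of all 7 resident members for 24 of the 34 other members. These were 14 of the 20 shared macrophage genes, 5 of 6 pan-leukocyte genes, both monocyte genes, both genes of damaged tissue and the neutrophil gene, and 0 of the 3 lymphocyte genes. The median ratio was 4.27 in the shared macrophage genes against 2.05 in the resident members. The 12 further resident markers had a median ratio of 2.96 and reached 4.34, in Ccl24. In a count added after the values were seen, 19 of the 34 were above all of the resident members and further markers, among them 9 of the 20 shared macrophage genes. On the log2 scale the order of the resident genes and the 6 monocyte, neutrophil and lymphocyte genes depended on the setting. The compared genes, 6 resident genes and 3 of the other group, had medians of 1.07 and 1.89. Those 3, Ccr2, Ly6c2 and Csf3r, were under 1 FPKM in the control and were compared only through their level in Rbfox2 OE. The filter thus favoured a higher median in that group. With no filter on low values, which adds the 3 lymphocyte genes and Timd4, the medians were both 0.91. With a pseudocount of 5 FPKM they were 0.76 and 0.68. For each gene, the bounds allow a smallest ratio, the lower bound in Rbfox2 OE over the upper bound in the control, and a largest ratio, the reverse.

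By that measure 3 genes stood apart from at least 1 resident gene. The smallest ratio of Ccr2, 8.84, was above the largest ratio of all 6 resident genes that have one, the highest being 8.58 for Pf4. The smallest ratio of Gpnmb, 7.97, was above that of 5 of them. That of Csf3r, 4.47, was above those of Cd163 and Lyve1. Folr2 has no largest ratio, because its lower bound in the control is 0. For the other 31 genes the ranges met those of every resident gene. No test of this difference was possible with 1 value per group.

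**Figure D2:**
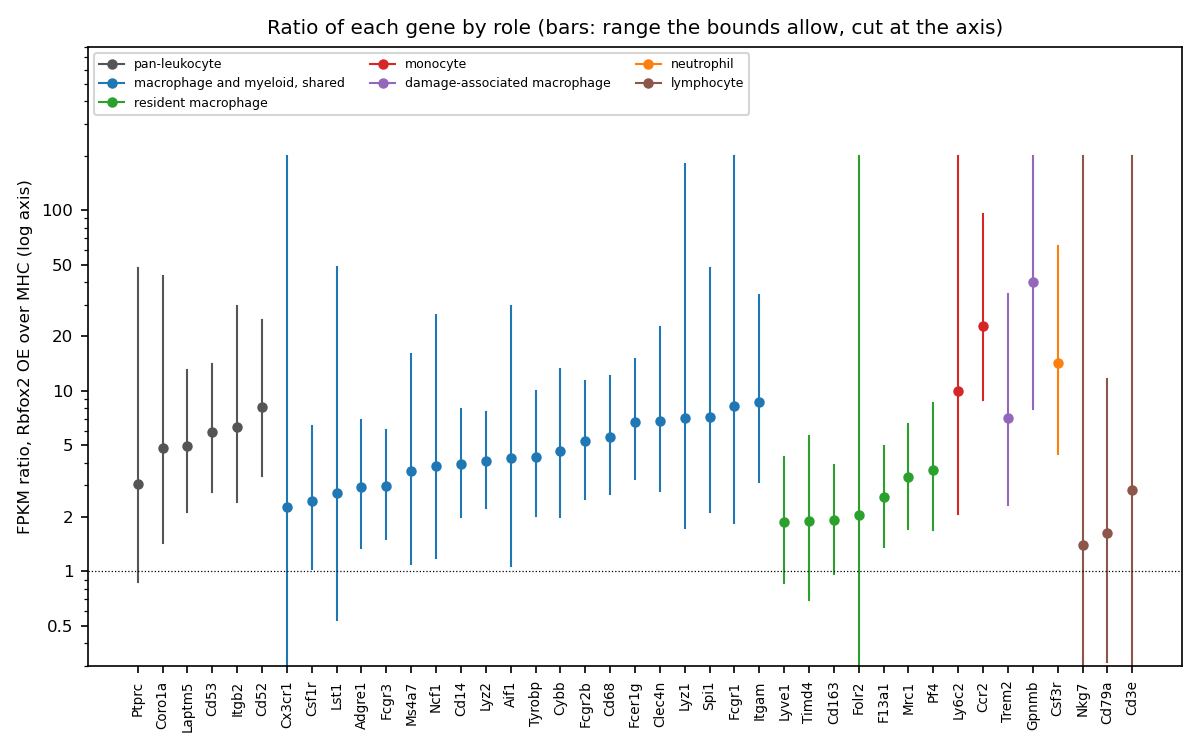
Ratio of FPKM in Rbfox2 OE over MHC control for each of the 41 genes on a log axis, grouped by role and ordered by ratio. Bars run from the smallest to the largest ratio that the authors' bounds allow, cut at the lower end of the axis. The 7 genes with a lower bound of 0 in the control have no largest ratio. Their bars end at a height inside the axis that was set for the drawing only. The resident macrophage genes in green lie between 1.89 and 3.66 and the lymphocyte genes between 1.40 and 2.81. The monocyte, damaged tissue and neutrophil genes, all under 1 FPKM in the control, lie between 7.04 and 40.1.

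Levels can also be given relative to another gene of the same group, which describes the proportions in each preparation and does not depend on how the groups were scaled. The order of the genes is that of their ratios by construction, so these values are a description and not a second comparison. For each unit of Csf1r, Ccr2 was 0.0313 in the control and 0.293 in Rbfox2 OE, and Csf3r was 0.0707 and 0.410. Lyve1 was 1.78 and 1.37, and Cd163 was 0.669 and 0.523. Over the 7 resident genes this relative level was higher in Rbfox2 OE for 3 and lower for 4, with changes from 0.771 to 1.496 times. Taken over Tyrobp, whose own ratio of 4.31 was above that of every resident member, the 7 stood at 0.437 to 0.849 times, Ccr2 at 5.31 times and Csf3r at 3.28 times the control level. As a share of the summed level of the 41 genes, the resident genes took 23.8% in the control against 14.7% in Rbfox2 OE. The monocyte genes took 0.325% and 1.08%, and the neutrophil gene 0.226% and 0.766%.

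**Figure D3:**
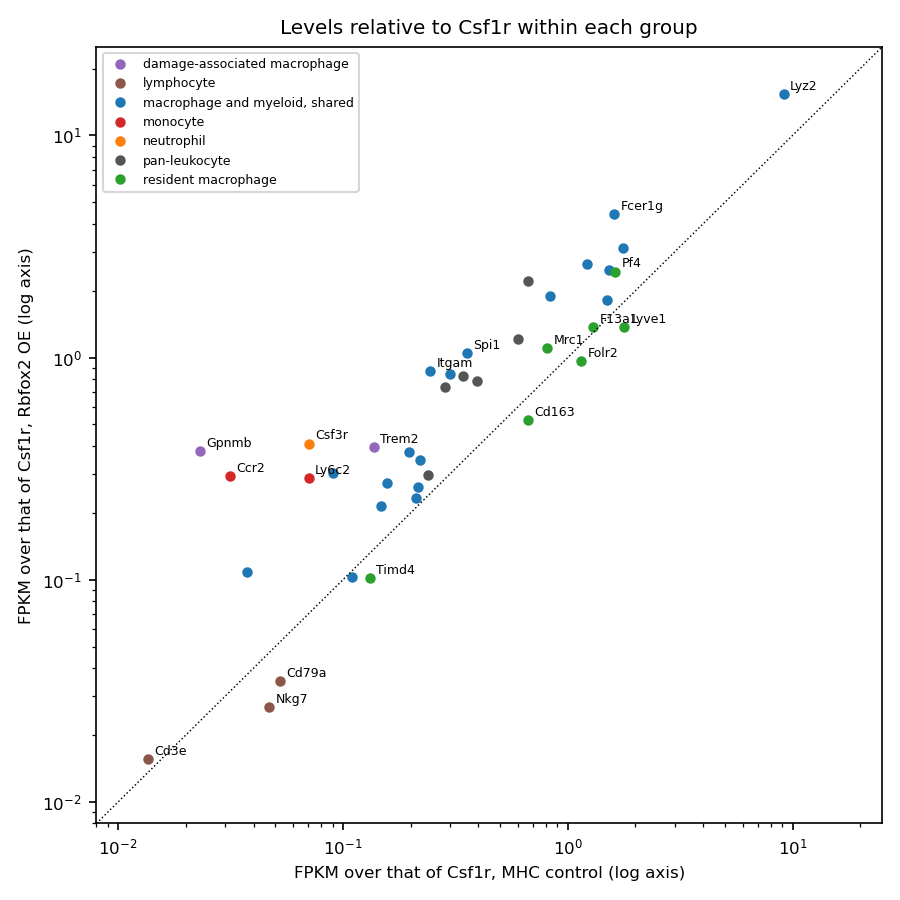
Level of each gene divided by that of Csf1r in the same group, MHC control on the x axis and Rbfox2 OE on the y axis, both log axes, without Csf1r itself. Points on the dotted line have the same relative level in both groups, and the resident macrophage genes in green lie near it while Ccr2, Gpnmb and Csf3r lie above it.

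Several cell types other than leukocytes also gave more signal in Rbfox2 OE, and most cardiomyocyte genes had lower values. All 10 fibroblast markers had higher values, 7 were 2-fold higher and 6 had separate bounds, and their summed level was 485 FPKM in the control against 961 FPKM in Rbfox2 OE. The collagen genes Col3a1 (16.2 against 74.2 FPKM) and Col1a1 (6.19 against 22.8 FPKM) and the matrix gene Postn (7.15 against 32.5 FPKM) differed most, and Gsn was the most abundant (254 against 416 FPKM), each control against Rbfox2 OE. Of 10 blood endothelial markers 3 were 2-fold higher (sums 523 and 800.2 FPKM): Emcn (27.1 against 68.3 FPKM), Cldn5 (4.86 against 11.3 FPKM) and Esam (18.5 against 41.7 FPKM), while Fabp4 was the most abundant (291 against 388 FPKM). Of 8 smooth muscle and pericyte markers 2 were 2-fold higher and 1 was 2-fold lower (sums 204 and 342 FPKM), with Acta2 at 43.7 against 139.6 FPKM, Rgs5, the most abundant in the control, at 71.9 against 127 FPKM, and Abcc9, a potassium channel subunit that heart muscle also expresses, at 58.5 against 16.2 FPKM. Of 6 red blood cell genes 4 were 2-fold higher with separate bounds (sums 56.6 and 295 FPKM), among them the globins Hbb-bs, at 42.1 FPKM (bounds 28.6 to 55.5) in the control against 209 FPKM (bounds 138 to 279) in Rbfox2 OE, Hba-a1 (11.2 against 67.3 FPKM) and Hba-a2 (0.634 against 8.87 FPKM).

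Of 12 cardiomyocyte genes 3 were 2-fold lower, 5 were lower with separate bounds, and the bounds of the other 7 overlapped or were at 0. The value was lower for 10 and higher for 1, the titin gene Ttn, at 166 FPKM (bounds 56.8 to 275) in the control against 252 FPKM (bounds 161 to 343) in Rbfox2 OE. The sum was 62215 FPKM in the control against 40053 FPKM in Rbfox2 OE. Myh6 adds nothing to it, because its value and both its bounds are listed as 0 in both groups. Whether that 0 is a measured level or a gene without an estimate was not tested. The 3 were the calcium release channel gene Ryr2 (122 against 22.4 FPKM), the cardiac actin gene Actc1 (6867 against 3013 FPKM) and the troponin gene Tnni3 (7811 against 3866 FPKM), and the most abundant was Myl2 (24688 against 18007 FPKM). The sum of the cardiomyocyte genes was thus far above that of the 41 genes in both groups, although Ryr2 in Rbfox2 OE stood below Lyz2 and several other members. The part that the makeup of the preparations has in the values of the 41 genes was not tested.

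Markers of the cells that also express some resident macrophage genes mostly had higher values in Rbfox2 OE too. Among 9 platelet and megakaryocyte markers all 9 values were higher in Rbfox2 OE. Of these, Ppbp was 2-fold higher, at 0.0733 FPKM (bounds 0 to 0.189) in the control against 1.22 FPKM (bounds 0.577 to 1.87) in Rbfox2 OE. The platelet receptor genes Gp9 (0.0396 against 0.141 FPKM), Gp1ba (0 against 0.0411 FPKM) and Gp6 (0.00213 against 0.0749 FPKM) were near 0 in both groups. The 9 genes summed to 0.774 FPKM in the control against 2.65 FPKM in Rbfox2 OE, far below Pf4. The ratio of these sums was 3.43, and that of Pf4 was 3.66. Among 6 lymphatic endothelial markers 5 values were higher in Rbfox2 OE, 3 of them with separate bounds, and 1 was lower. Pdpn, at 2.45 against 11.5 FPKM, and Ccl21a, at 6.78 against 20.7 FPKM, were 2-fold higher with separate bounds. Prox1, the transcription factor that defines lymphatic endothelium and is also expressed in heart muscle, was lower in Rbfox2 OE with separate bounds, at 11.6 FPKM (bounds 8.10 to 15.2) in the control against 5.76 FPKM (bounds 3.92 to 7.60) in Rbfox2 OE. The part of platelets or lymphatic vessels in Pf4 and Lyve1 was not tested.

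**Figure D4:**
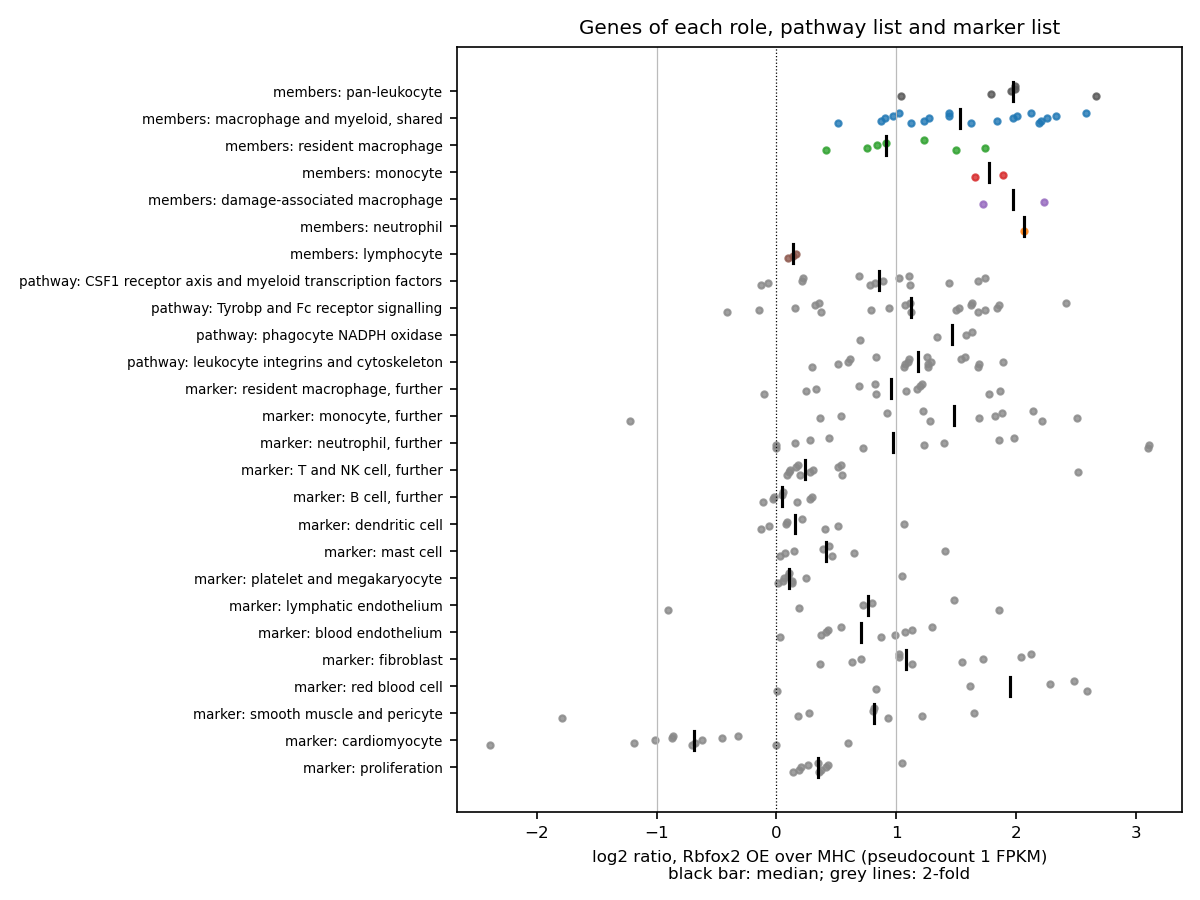
Log2 ratio (Rbfox2 OE over control, with 1 FPKM added) for each gene of the 7 roles among the 41 genes, in colour, and of the 4 pathway lists and 15 marker lists, in grey. Each point is a gene, black bars are medians and grey lines mark 2-fold, and the cardiomyocyte genes lie mostly to the left of 0 while most myeloid genes lie to the right.

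Some values rest on counting choices that the sources used here do not give. Of the 41 genes 13 overlap another annotated gene, 9 of them one on the opposite strand, and whether strand was used in counting is not given. Without the 13, 20 of the other 28 genes were 2-fold higher and 0 were lower. All 41 genes had the status OK in both groups, and none was listed at 0. In 7 of them the lower bound in the control was 0. Rbfox2 itself stood at 14.7 FPKM (bounds 10.4 to 19.0) in the control against 293 FPKM (bounds 214 to 373) in Rbfox2 OE, which matches the labels. Nothing says that the libraries of a group came from separate mice, so the bounds may describe technical spread only.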

How the data were processed

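Polyadenylated RNA of cardiomyocytes was sequenced from stranded libraries, 2 per group, per the labels' protocols. The deposited FPKM values are the authors' Cuffdiff estimates, per the file headers, with 1 pooled value per gene and group. The bounds and the status are the authors' too, per the file headers, which do not state the level of the bounds. The submitters' processing notes name bcl2fastq 2.17.1.14, Trimmomatic, STAR 2.4.2a, Picard 1.119, HTSeq, DESeq2 and Cuffdiff 2.2.1 and the builds GRCm38 and mm10. Their roles, and the normalization and use of strand, are not given in the sources used here. No per-library column was unused (0), and the depth is unknown.

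From the deposited values, log2 ratios were computed after adding a pseudocount of 1 FPKM, so that differences of low genes come out too small. Rows sharing a name were summed, and genes averaging 1 FPKM or more were called compared. A difference was counted at 2-fold and, separately, where the bounds did not overlap. A fit across libraries, planned in case the table held them, was not possible, so no p-value was computed. All 41 genes are accounted for by rule, those with a mean of at least 1 FPKM with both values and bounds. For each of the 4 pathway lists and 15 marker lists, counts are given with up to 3 genes of the largest log2 ratio past both criteria and the most abundant gene. The genes chosen by log2 ratio needed a mean of at least 1 FPKM. Clec4d, Clec7a, Fgr, Csf2rb, Csf2rb2, Rac2, Fyb, Plac8, Chil3, Retnlg, Ccl5 and Hba-a2 reached it only through Rbfox2 OE. Ly6g, the genes of the T and NK list as a range, Gp9, Gp1ba, Gp6, Prox1, Syk, Plcg2, Csf1, Mpo, Elane, Myh6, Cma1, Ms4a2 and Mki67 were named outside that rule, after their values were seen, and 1 gene that the rule chose is not reported here. The members and lists were chosen with earlier results of these data known. Coordinates and transcripts are from GENCODE M21 and promoters from RefSeq (GRCm38.p6). The last 50 bases of the promoter windows were found in a transcript of the gene for 25 of 31 members. Python 3.11.15, pandas 2.3.3, numpy 2.4.6 and matplotlib 3.10.9 were used, and the calculations were tested on simulated data.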

Additional observations from a re-analysis of the deposited data

How the results depend on the processing

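Across 12 alternatives, 1 of them (leaving out genes that overlap another) chosen after seeing the data, 70 of 77 counts and medians stayed within the range set for them: 1.5 times for a count, and the range that the bounds allow for a median. No log2 ratio of a compared gene changed sign, and a change of pseudocount cannot change a sign. Of 265 such ratios, 253 stayed within the range of their bounds and 12 did not, all with another pseudocount. Many of the 253 could not have moved. The filters on level and status leave the ratio of each gene as it is, and the first row per name changes only Itgam. The status filter removed no gene, so its counts and medians could not move either. The counts with separate bounds do not use the pseudocount and were fixed when it changed. With all 41 values higher, no change of pseudocount, filter or threshold could make a gene count as lower. The 70 of 77 include such fixed values. The count of genes at 2-fold, 30 as reported, was 16 with a pseudocount of 5 FPKM, 18 with a mean of at least 5 FPKM and 10 at a 4-fold threshold. Among genes compared, the count with separate bounds was 30, and it was 18 with a mean of at least 5 FPKM. In each of these fewer genes can pass by construction. The median log2 ratio of the compared monocyte, neutrophil and lymphocyte genes was 1.89 with a pseudocount of 1 FPKM. It was 3.46 with a pseudocount of 0.1 FPKM and 0.68 with 5 FPKM. With no filter, which adds the 3 lymphocyte genes, it was 0.91. The 3 genes of that group that were compared, Ccr2, Ly6c2 and Csf3r, passed the filter only through Rbfox2 OE. The median of the compared resident genes was 1.07 with a pseudocount of 1 FPKM, 1.19 with a pseudocount of 0.1 FPKM, 0.76 with 5 FPKM, 0.91 with no filter and 0.91 without Lyve1, Pf4 and F13a1. It was thus no longer below that of the other group with 5 FPKM or with no filter. Under both other scalings all 41 values stayed higher, with 32 and 31 at 2-fold. The median gene, at -0.06 as deposited, was at 0.07 when rescaled without mitochondrial genes, the 10 most abundant genes and genes without an estimate. No paired analysis was possible because each group has a single combined column, and leaving out a library could not be run for the same reason.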

Other observations

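Other immune cell and cycling genes were mostly too low to describe beyond their values. Of 8 dendritic cell markers, 1 was 2-fold higher and 3 had separate bounds with the higher value in Rbfox2 OE. The most abundant, Zbtb46, which endothelial cells also express, stood at 3.57 FPKM (bounds 2.22 to 4.92) in the control against 3.18 FPKM (bounds 1.98 to 4.38) in Rbfox2 OE. Of 8 mast cell markers 1 was 2-fold higher, Hdc, the histidine decarboxylase that makes histamine, at 1.13 FPKM (bounds 0.265 to 2.004) in the control against 4.68 FPKM (bounds 2.70 to 6.65) in Rbfox2 OE, while the mast cell protease gene Cma1 stood at 0.142 against 0.551 FPKM, control against Rbfox2 OE, and Ms4a2, a chain of the IgE receptor, was listed at 0 in the control. Of 10 proliferation genes all had higher values in Rbfox2 OE and 0 had separate bounds, with Tyms, which makes thymidylate, the most abundant at 0.881 FPKM (bounds 0.117 to 1.64) in the control against 2.90 FPKM (bounds 1.08 to 4.72) in Rbfox2 OE and Mki67 at 0.435 against 0.835 FPKM.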
